A study of Mus musculus with 8 samples.

Results

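The genes described here encode the gate through which pyruvate enters the mitochondrial matrix and becomes acetyl-CoA: the pyruvate dehydrogenase kinases Pdk1, Pdk2, Pdk3 and Pdk4, the pyruvate dehydrogenase phosphatases Pdp1 and Pdp2, the E1 subunits Pdha1 and Pdhb, and the mitochondrial pyruvate carrier subunits Mpc1 and Mpc2. They were taken by symbol from the table of raw read counts. All 10 were among the 55367 genes listed. Genes were tested if 3 or more libraries held 10 or more counts, which left 12137 genes and all 10 of these.

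Pyruvate made by glycolysis, or from lactate by lactate dehydrogenase, crosses the inner mitochondrial membrane through a carrier built of MPC1 and MPC2. In the matrix, the pyruvate dehydrogenase complex turns it into acetyl-CoA for the tricarboxylic acid (TCA) cycle. The kinases switch the complex off by phosphorylating its E1 alpha subunit, the product of Pdha1, and the phosphatases remove that phosphate and switch it on again. Pdk1 is a textbook target of hypoxia-inducible factor 1, and Pdk4 is known for its induction in fasting and by fatty acids through PPAR, FOXO and estrogen-related receptors. The gate is set by phosphorylation, which RNA levels do not measure.

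RNA was sequenced from a mouse fibroblastic reticular cell (FRC) line, the stromal cell that builds the conduit network of the lymph node. This line was raised from lymph nodes of p53 ER/ER mice on a C57BL/6 background, so all 8 libraries come from the same line and genotype. The cells were kept for 4 days in medium with 2% FBS under 4 conditions with 2 libraries each: water as vehicle, 15 mmol/L lactic acid (LA), medium conditioned by FRCs (CCM) as the control medium, or medium conditioned by B16.F10 mouse melanoma cells (TCM). LA was therefore compared with vehicle and TCM with CCM. The study describes the 2 libraries of a condition as biological replicates; how far the cultures were separate was not given in the sources used here, so the p-values measure the spread between these libraries. With 2 libraries against 2, an exact permutation test of a single gene cannot give a p below 0.333, and the tests below therefore draw their error from a model fitted across all genes.

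The libraries held 8232889 to 14107964 counts, and 3 counts in a library corresponded to 0.213 to 0.364 CPM, the counts scaled to a common library total. The 2 TCM libraries stood furthest apart, with a chi-square per degree of freedom of 20.6 between them against 3.30 to 7.43 for the pairs of the other conditions. The error of comparisons with TCM is thus pooled with that of tighter pairs and may be too small. Of 11 FRC markers, Pdpn, Vcam1, Pdgfra, Pdgfrb and Col1a1 were at 46.6 CPM or more in every library, and the other 6 were low or absent. Col1a2 was at 6.37 to 15.2 CPM, Lum at 2.84 to 12.5 CPM, Il7 at 0.558 to 1.83 CPM and Thy1 at 1 to 16 counts. The FRC chemokine genes were nearly silent, with Ccl21a at 0 counts in all libraries and Ccl19 at 1 count in 1 library. Of the leukocyte markers, Ptprc, Cd3e and Itgam were at 0 counts everywhere, and Lyz2 was counted. Of the melanocyte lineage genes, Tyr was at 0 counts everywhere, and Tyrp1 was at 6 and 3 counts in the TCM libraries and at 0 elsewhere. Dct was at 1 count in each TCM library and Sox10 at 1 count in TCM 2, and both were at 0 elsewhere. Mlana was at 1 count in LA 2 and in TCM 1. The summed CPM of the 7 melanoma markers was 2.29 and 2.63 in TCM, within the 1.82 to 3.67 of the other libraries. Most of this sum came from Pmel (10 to 21 counts) and Mitf (6 to 29 counts), counted in every library. It therefore does not show whether melanoma RNA was present in TCM.

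The sequence before the start site is shown for Pdk1 and Pdk4, the 2 kinases with the largest changes below, with the letters ACGTG and GCGTG (searched on both strands; the core of the hypoxia response element) in capitals. Each line gives the 250 bases before the RefSeq start, 5′ to 3′ on the gene's strand, in GRCm38.p6. The Pdk1 window is chr2:71872974-71873223 on the + strand and the Pdk4 window is chr6:5496279-5496528 on the - strand.
Pdk1: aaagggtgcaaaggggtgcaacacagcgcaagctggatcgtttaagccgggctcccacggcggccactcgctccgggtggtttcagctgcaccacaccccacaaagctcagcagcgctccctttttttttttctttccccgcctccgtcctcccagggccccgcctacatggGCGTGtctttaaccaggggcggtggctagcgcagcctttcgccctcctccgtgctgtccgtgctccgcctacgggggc
Pdk4: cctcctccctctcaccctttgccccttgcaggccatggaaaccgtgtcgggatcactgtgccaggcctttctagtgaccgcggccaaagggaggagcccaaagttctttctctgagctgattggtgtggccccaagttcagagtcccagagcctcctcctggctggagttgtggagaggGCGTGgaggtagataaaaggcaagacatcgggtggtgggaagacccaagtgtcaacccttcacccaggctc
Each window held a GCGTG, which ended 73 bases before the Pdk1 start and 66 bases before the Pdk4 start. Windows of the same length held ACGTG or GCGTG in 38.6% of 32851 RefSeq starts, and GCGTG alone in 28.2%. The match was not particular to the kinases that changed: each of the 9 genes with a window held at least 1 match in its first window, 4 of them in Pdk3 and 3 in Pdha1. A second Pdk1 start, a second Pdk2 start and a second Mpc1 start held no match. No window of these genes held, on either strand, the letters AAGGTCA of estrogen-related receptors (4.08% of all windows). The forkhead letters GTAAACA (3.17% of all windows) were also not found, nor was a direct repeat, with 1 base between its parts, of the PPAR half-site AGGTCA (0.0335% of all windows). Pdp1 had no window in the table used.

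**Figure D1:**
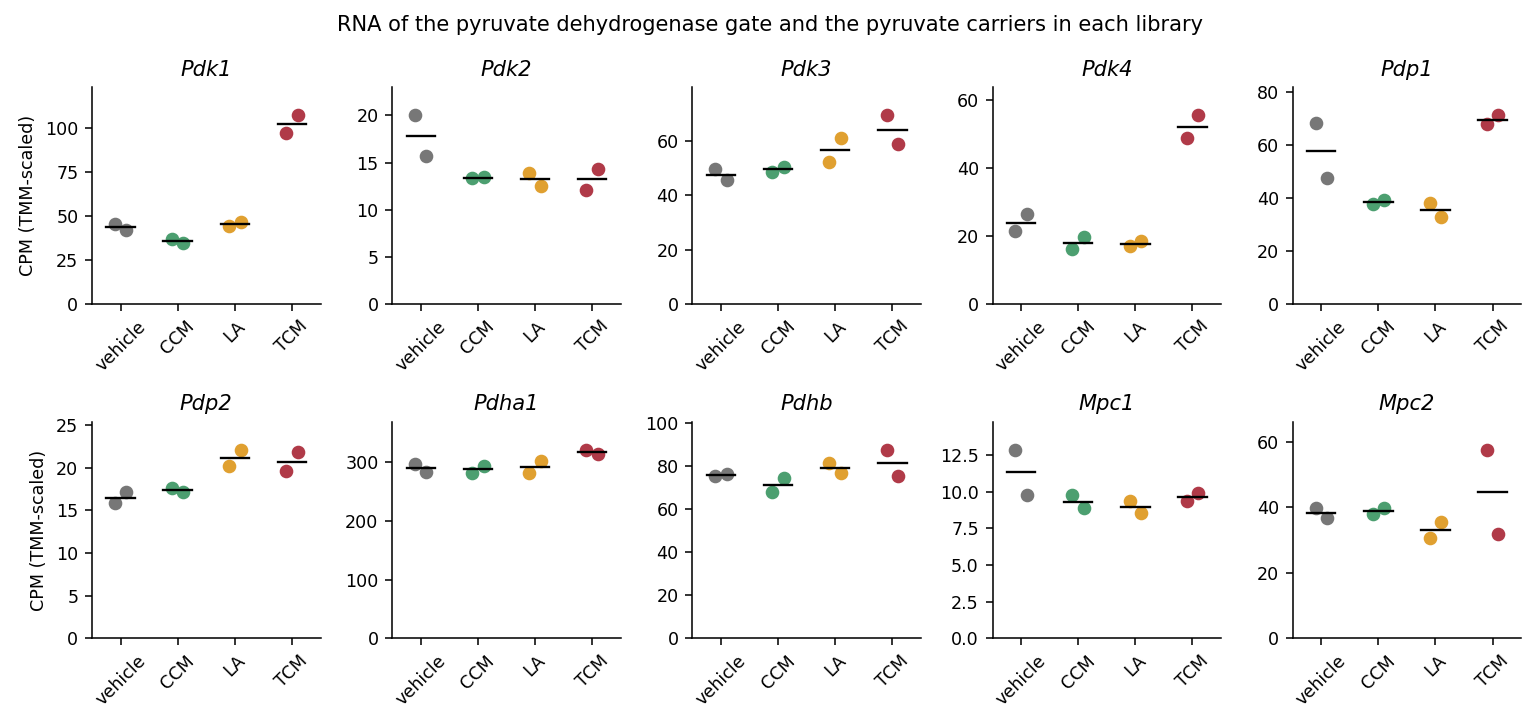
Level of each gene (y axis, TMM-scaled CPM, starting at 0) in the 2 libraries of each condition (x axis), with the condition mean as a black bar. Pdk1 and Pdk4 lie apart in TCM, at 97.3 and 107 CPM and at 48.9 and 55.6 CPM, while Pdp1 is low in CCM and LA and the vehicle libraries differ from each other.

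TCM against CCM asks how medium conditioned by melanoma cells changes the FRCs beyond medium conditioned by FRCs. What the conditioning cells released and what they used up cannot be told apart here. For each gene the text gives the CPM, the log2 fold change (FC) from edgeR's quasi-likelihood test, and the Benjamini-Hochberg adjusted p over all 12137 genes. A gene was called changed at an adjusted p under 0.05 with a log2 FC beyond 0.39. By this rule 3 of the 10 genes were higher in TCM than in CCM and none was lower, whereas 19.1% of all genes tested were called, 8.83% higher and 10.2% lower. The 3 were Pdk1, Pdk4 and Pdp1, that is, a pair of kinases and a phosphatase with opposite actions on the complex. The median log2 FC of the 10 genes was 0.23, beside 0.00032 for all genes tested.

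Pdk1 (chromosome 2, positions 71873224 to 71903858 of GRCm38, + strand) was at 37.0 and 34.5 CPM in the CCM libraries and at 97.3 and 107 CPM in the TCM libraries. In a bulk sample, more RNA per cell and more cells of a kind cannot be told apart. The groups did not overlap, as was the case for 58.3% of all genes in this comparison. Both TCM libraries were also above every vehicle and LA library, a pattern whose share over all genes was not counted. The log2 FC was 1.51 (SE 0.105), or 2.86-fold, with an edgeR adjusted p of 1.34e-05. Over the 4 conditions together, where 21% of all genes passed, Pdk1 ranked 21 of 12137 genes by p, with an edgeR adjusted p of 2.43e-05.

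Pdk4 (chromosome 6, positions 5483351 to 5496309, - strand) was at 16.3 and 19.8 CPM in CCM and at 48.9 and 55.6 CPM in TCM. Again every TCM library was above every other library. TCM and CCM did not overlap for 58.3% of all genes, and the share of genes with TCM above all other libraries was not counted. The log2 FC was 1.54 (SE 0.143), or 2.90-fold, with an edgeR adjusted p of 4.43e-05, and the gene ranked 81 over the 4 conditions.

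Pdp1, whose product removes the phosphate that the kinases add, was at 38.0 and 39.1 CPM in CCM and at 67.9 and 71.3 CPM in TCM (chromosome 4, positions 11958184 to 11966452, - strand). Each pair was tight, and the gap between them gave a log2 FC of 0.85 (SE 0.155), or 1.81-fold, with an edgeR adjusted p of 0.00282. The vehicle libraries of Pdp1 were at 68.4 and 47.5 CPM, so the first of them lay at the level of TCM. Against vehicle, Pdp1 in TCM had a log2 FC of 0.27 (SE 0.152; edgeR adjusted p = 0.252), and the groups overlapped; without vehicle 1 it passed, at 0.55.

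Pdk3 was at 48.8 and 50.7 CPM in CCM and at 69.6 and 59.2 CPM in TCM. The groups did not overlap, but the log2 FC of 0.37 (SE 0.119; edgeR adjusted p = 0.047) lay just under the threshold of 0.39. The gene passed against vehicle (49.7 and 45.7 CPM), with a log2 FC of 0.43 (SE 0.120; edgeR adjusted p = 0.0276). That call was lost in 5 of the 8 fits that left out a library, without TCM 1, either vehicle library or either CCM library. Without TCM 2, Pdk3 also passed against CCM, at 0.48. Pdk2 was at 13.3 and 13.5 CPM in CCM and at 12.1 and 14.3 CPM in TCM, and the log2 FC was -0.02 with a 95% interval of -0.38 to 0.34. Its highest mean was that of vehicle, 17.9 CPM ± 3.02 (SD, n = 2).

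The remaining genes did not pass the test between TCM and CCM. Pdp2, the second phosphatase, had a log2 FC of 0.25 (95% interval -0.028 to 0.53). Pdha1 and Pdhb encode the 2 subunits of E1, the enzyme that decarboxylates pyruvate. Pdha1 was at 281 to 303 CPM in the 6 libraries outside TCM and at 320 and 313 CPM in TCM, with a log2 FC of 0.14 (95% interval -0.061 to 0.34). Pdhb had a log2 FC of 0.19 (95% interval -0.04 to 0.42). The interval of Pdha1 leaves no room for a change as large as that of Pdk1 or Pdk4.

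The carrier genes did not pass either, with wider intervals. Mpc1 was at 9.78 and 8.89 CPM in CCM and at 9.38 and 9.93 CPM in TCM (95% interval of the log2 FC -0.35 to 0.44). Its reads may be shared with a pseudogene, Mpc1-ps, which was at 21 to 30 counts beside 79 to 121 counts for Mpc1. The sequences of Mpc1 and Mpc1-ps were not compared, so the Mpc1 values are uncertain. Mpc2 was at 57.4 CPM in TCM 1 and at 32.0 CPM in TCM 2, on either side of the CCM libraries at 37.9 and 39.9 CPM. Its log2 FC was 0.20 (95% interval -0.26 to 0.66). Without TCM 2 Mpc2 passed the test, at 0.56, and without TCM 1 it was -0.28, so the TCM libraries disagreed on its direction. Genes on the opposite strand overlap Pdk2, Pdha1 and Mpc1, but none of these neighbours was above 4 counts in a library. On the same strand, Gm37860 overlaps Mpc2 and was at 0 counts in all libraries. How reads falling on 2 genes were counted was not given in the sources used here, so some reads of these genes may be missing.

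LA against vehicle asks what lactic acid does without the other contents of TCM. It gave a different picture: no kinase passed, and the only call was a lower Pdp1, 1 of the 10 genes beside 2.55% of all genes tested, or 1.24% called lower. The median log2 FC of the 10 genes was -0.09, beside -0.00035 for all genes. Pdk1 was at 44.2 and 46.8 CPM in LA and at 45.2 and 42.1 CPM in vehicle, overlapping levels with a log2 FC of 0.06 (SE 0.106; 95% interval -0.17 to 0.30). Pdk4 was at 17.0 and 18.4 CPM in LA and at 21.3 and 26.4 CPM in vehicle. The groups of Pdk4 did not overlap, which was the case for 48% of all genes in this comparison, and its log2 FC of -0.43 (SE 0.150) had an edgeR adjusted p of 0.201.

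Pdp1 was at 38.2 and 32.9 CPM in LA, below the 68.4 and 47.5 CPM of vehicle, with a log2 FC of -0.71 (SE 0.157; edgeR adjusted p = 0.0408). This call was narrow. It was lost in 5 of the 8 fits that left out a library, and without vehicle 1 the log2 FC was -0.42 (edgeR adjusted p = 0.294). It was also lost when only the vehicle and LA libraries were fitted (edgeR adjusted p = 0.104). CCM against vehicle gave a similar value for Pdp1, a log2 FC of -0.58 (SE 0.155; edgeR adjusted p = 0.0996) that did not pass; the vehicle libraries are shared by these 2 comparisons. Of the other kinases and phosphatases, Pdk2 had a log2 FC of -0.44 (edgeR adjusted p = 0.215), Pdk3 of 0.26 (edgeR adjusted p = 0.36) and Pdp2 of 0.36 (edgeR adjusted p = 0.197) in LA. Pdha1 was nearest to 0, at 0.01 (95% interval -0.19 to 0.21), and Pdhb was at 0.05 (95% interval -0.18 to 0.28). Mpc1 and Mpc2 had log2 FCs of -0.34 (95% interval -0.73 to 0.046) and -0.20 (95% interval -0.67 to 0.27).

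**Figure D2:**
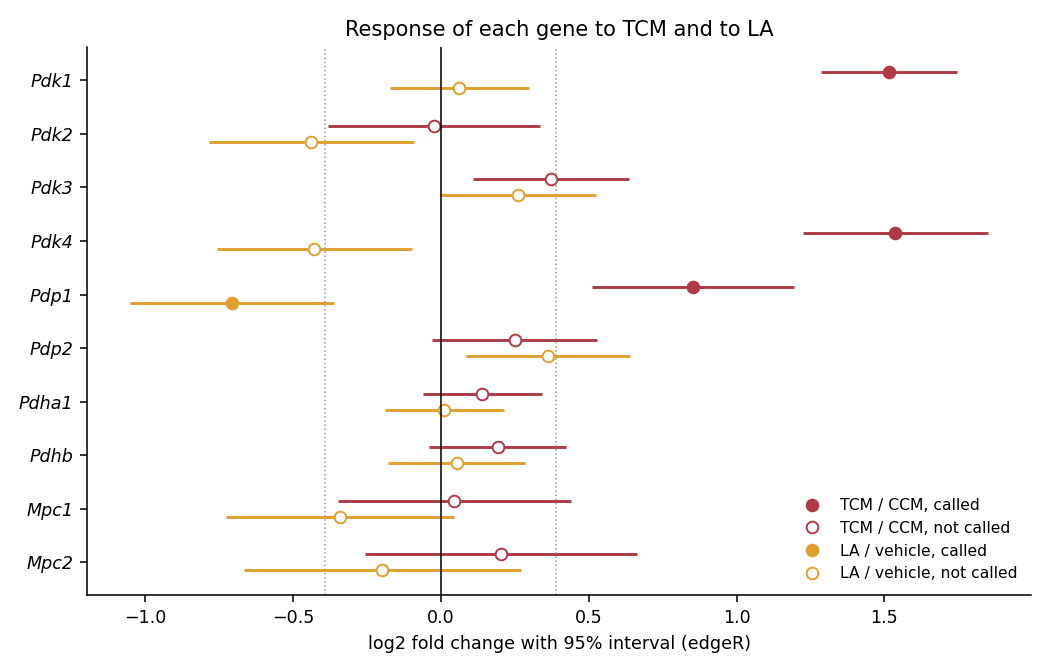
Log2 FC (x axis) of each gene (y axis) for TCM against CCM in red and LA against vehicle in orange, with 95% intervals as lines, filled points for called genes and dotted lines at a log2 FC of 0.39 in either direction. Pdk1, Pdk4 and Pdp1 in TCM are to the right of every LA value, and Pdp1 in LA, at -0.71, is the only filled point to the left of 0.

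The effect of TCM over CCM and the effect of LA over vehicle come from different libraries, so their difference was tested directly. It passed for Pdk1, Pdk4 and Pdp1, 3 of the 10 genes beside 10.4% of all genes tested, or 4.45% with the higher value in TCM. The TCM effect exceeded the LA effect by 1.45 (SE 0.149; edgeR adjusted p = 0.00014) for Pdk1, by 1.96 (SE 0.207; edgeR adjusted p = 0.000161) for Pdk4, and by 1.56 (SE 0.220; edgeR adjusted p = 0.00106) for Pdp1 on the log2 scale. For Pdk4 and Pdp1 the difference was larger than the TCM effect because their log2 FCs of LA against vehicle were below 0 (-0.43, not called, and -0.71). Their LA levels were near those of CCM, with log2 FCs of LA against CCM of -0.015 and -0.12. CCM was also below vehicle, at -0.41 and -0.58 (neither called), so the difference includes the gap between the 2 controls. The other 7 genes did not pass, and the largest of their differences was 0.42 for Pdk2 (95% interval -0.083 to 0.91). Without TCM 2, Mpc2 passed as well, at 0.76.

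TCM and LA were also compared directly. Again Pdk1, Pdk4 and Pdp1 were higher in TCM, 3 of 10 beside 16.1% of all genes (8.34% higher), with log2 FCs of 1.17 (SE 0.103), 1.55 (SE 0.143) and 0.97 (SE 0.156) and edgeR adjusted p-values of 4.86e-05, 5.85e-05 and 0.00165. Against vehicle, TCM gave 3 higher calls beside 17.5% of all genes (8.58% higher): Pdk1 at 1.23, Pdk4 at 1.12 and Pdk3 as above. Without TCM 2 this count was 5, with Pdk2 (lower) and Mpc2 added, and the count of TCM against CCM was also 5, with Pdk3 and Mpc2 added; without TCM 1, vehicle 2 or either CCM library the count against vehicle was 2. Without scaling factors Pdk2 (-0.54) took the place of Pdk3 among the 3. The comparisons of TCM with CCM, vehicle and LA share the TCM libraries. Between CCM and vehicle edgeR called 0 of the 10 genes (1.3% of all genes); 4 were lower at an unadjusted p under 0.05, and DESeq2 called 1, Pdp1. Between LA and CCM edgeR called 0 (0.626% of all genes); 2 were higher at an unadjusted p under 0.05, and DESeq2 called 0. The order of the condition means was therefore resolved only at its top for Pdk1 and Pdk4: TCM was above the other 3 conditions, which did not differ from each other by the test. For Pdp1, TCM was above CCM and LA but not above vehicle.

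To compare levels between genes, the CPM of each gene were divided by its summed exon length. On this scale Pdha1 was the most abundant of the 10 in every condition, at 77.6 CPM per kb ± 2.51 (SD, n = 2) in vehicle and 84.9 ± 1.37 (SD, n = 2) in TCM. Pdk3 was the most abundant kinase in every condition, at 18.6 CPM per kb ± 1.11 (SD, n = 2) in vehicle, against 5.61 ± 0.286 for Pdk1, 5.65 ± 0.954 for Pdk2 and 6.79 ± 1.01 for Pdk4 (SD, n = 2 each). In TCM, Pdk1 came to 13.2 ± 0.912 and Pdk4 to 14.9 ± 1.34 CPM per kb, still below Pdk3 at 25.1 ± 2.87 (SD, n = 2 each).

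The 4 kinases together came to 37.6 and 35.7 CPM per kb in vehicle, 32.7 and 34.1 in CCM, 35.4 and 39.2 in LA, and 57.4 and 57.2 in TCM. Both TCM libraries lay above the other 6, a pattern whose share over all genes was not counted. They differed little in the sum, but their kinases differed in opposite directions. Pdk3 was higher in TCM 1 (27.2 against 23.1 CPM per kb). Pdk1, Pdk2 and Pdk4 were higher in TCM 2 (13.8, 4.52 and 15.8 against 12.5, 3.83 and 13.9). From CCM to TCM the make-up of the sum also changed. Pdk3 held 58.2% ± 0.259 of kinase RNA in CCM and 43.8% ± 4.91 in TCM (SD, n = 2 each). The share of Pdk1 was 13.8% ± 1.10 in CCM and 22.9% ± 1.64 in TCM, that of Pdk4 15.4% ± 1.65 and 25.9% ± 2.40, and that of Pdk2 12.7% ± 0.284 and 7.29% ± 0.866 (SD, n = 2 each). In LA the shares of Pdk1 and Pdk4 were 15.7% ± 0.520 and 13.6% ± 0.236 (SD, n = 2 each). These shares depend on the length used: with the longest transcript of each gene, Pdk1 held 27.8% and Pdk4 21.1% in TCM, so the order of those 2 kinases turned, while Pdk3 stayed first at 42.8%.

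**Figure D3:**
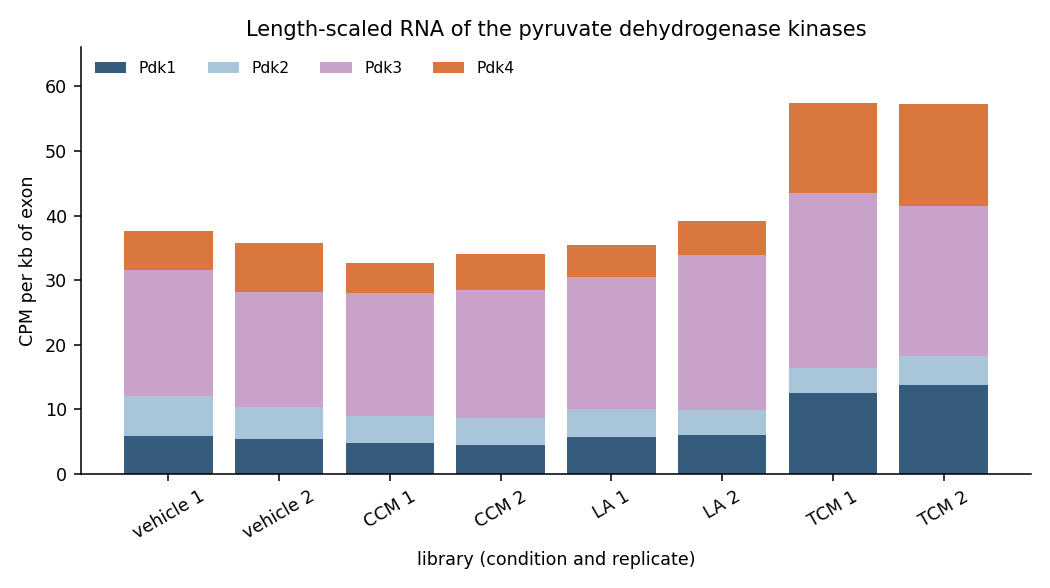
RNA of the 4 kinases (y axis, CPM per kb of summed exon length, stacked by gene) in each of the 8 libraries (x axis). The stacks of the TCM libraries reach 57.4 and 57.2, above the 32.7 to 39.2 of the other libraries, and the added height lies mostly in Pdk1 and Pdk4.

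Across the 8 libraries, Pdk1 and Pdk4 had the highest correlation with each other among the 4 kinases (Pearson r of log2 CPM 0.934), as a description of 8 points that hold 4 conditions. The genes whose levels were most like those of Pdk1 among all genes tested were Pfkl (r = 0.991), P4ha2 (r = 0.991), Pigt (r = 0.991), Aldoa (r = 0.988) and Plod3 (r = 0.988), over the same 8 libraries. Pfkl encodes a phosphofructokinase and Aldoa an aldolase, both of glycolysis, P4ha2 and Plod3 encode collagen-modifying hydroxylases, and Pigt a subunit of the transamidase that attaches lipid anchors to proteins. Pfkl was at 119 CPM in CCM, 151 CPM in LA and 309 CPM in TCM (means of 2 libraries).

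The genes around the gate were described by lists, each a background of what lies upstream or downstream. Of 13 tested hypoxia targets, 10 were higher in TCM than in CCM and 1 was lower, where 8.83% of all genes were called higher and 10.2% lower. Their median log2 FC was 0.78, beside 0.00032 for all genes. Among the higher ones, Aldoa had a log2 FC of 1.29 (SE 0.104), Bnip3, a mitophagy receptor, of 1.66 (SE 0.161), Pgk1, a glycolytic kinase, of 1.18 (SE 0.118) and Ldha, which interconverts pyruvate and lactate, of 0.97 (SE 0.107). The lower gene was Ndrg1, at -0.69 (SE 0.109), named after its value was seen. Without CCM 1 the count of higher genes was 7, and without scaling factors it was 9. In LA against vehicle edgeR called 0 of the 13, beside 2.55% of all genes, with a median of -0.04. At an unadjusted p under 0.05, 2 were lower, and DESeq2 called 0. With the replicate number as a block, without either TCM library or with no filter on low counts, 1 was called lower in LA. The part of these genes in the Pdk1 and Pdk4 values was not tested.

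Of 12 tested genes for other fates and sources of pyruvate, 6 were higher and 2 lower in TCM than in CCM, where 8.83% of all genes were called higher and 10.2% lower. Their median log2 FC was 0.36, beside 0.00032 for all genes. Besides Ldha, the higher ones included Ldhb (12.9 CPM in CCM and 20.8 CPM in TCM). The malic enzyme Me3 and the lactate exporter Slc16a3, both at under 5 CPM, had log2 FCs of 1.91 (SE 0.404) and 1.57 (SE 0.350). By qRT-PCR of FRCs, the study reported Slc16a3, as Mct4, to be lower with TCM and with LA, the opposite direction. Here its log2 FC in LA against vehicle was 1.18 (SE 0.437), not called (edgeR adjusted p = 0.229). The cause of this difference was not tested. Gpt2, an alanine transaminase, and Me2, a malic enzyme, were the lower genes of the list, at -0.53 (SE 0.130) and -0.44 (SE 0.0995), also named after their values were seen. Without scaling factors the counts were 4 higher and 4 lower, without CCM 1 they were 2 and 1, without CCM 2 they were 2 and 0, and without TCM 1 they were 4 and 1. In LA edgeR called 0 of the 12, beside 2.55% of all genes. At an unadjusted p under 0.05, 2 were higher and 1 lower, and DESeq2 called 0. With the replicate block, or with only the vehicle and LA libraries fitted, 1 was called lower, and without either TCM library 1 was called higher and 1 lower.

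The genes of the complex itself and of the cycle it feeds are set here against 19.1% of all genes called in TCM against CCM and 2.55% in LA against vehicle. Of the 4 tested genes of other subunits and regulators of the complex (Dlat, Dld, Pdhx and Pdpr), edgeR called 0 in TCM against CCM, with 1 higher and 1 lower at an unadjusted p under 0.05, and DESeq2 called 0; without TCM 2 or without scaling factors 1 was called lower. Of 12 genes that make and attach its lipoic acid cofactor, edgeR called 0, with 1 higher at an unadjusted p under 0.05, and DESeq2 called 0; without TCM 2 the count was 1. Of 17 TCA cycle genes, only Idh2 passed, at 0.40 (SE 0.103), just beyond the threshold of 0.39. Among the other subunits, Dlat lay under that threshold, at 0.36 (SE 0.0986), with an edgeR adjusted p of 0.0237. Pdhx, the lower gene, was at -0.32 (edgeR adjusted p = 0.0911). The TCA count was 0 without TCM 1 or either CCM library, without scaling factors and with only the CCM and TCM libraries fitted, and 5 higher without TCM 2. In LA against vehicle edgeR and DESeq2 called 0 in all 3 lists, and at an unadjusted p under 0.05 there were 0, 0 and 1 genes, so the counts of 0 are near the share over all genes.

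The next lists are also set against 19.1% of all genes called in TCM against CCM and 2.55% in LA against vehicle. Of 7 tested genes that handle acetyl groups, the citrate carrier Slc25a1 was higher in TCM, at 0.74 (SE 0.102). The acetyl-CoA synthetase Acss2 was higher in LA, at 0.77 (SE 0.124, edgeR adjusted p = 0.0107). Acss2 was at 31.5 CPM in vehicle and 53.3 CPM in LA, and at 28.6 CPM in TCM. The count of this list in LA was 0 without either vehicle library, without LA 2 and with glmTreat. Of the 5 genes of the related branched-chain ketoacid dehydrogenase and its own kinase and phosphatase, Dbt, its acyltransferase core, passed in TCM at 0.40 (SE 0.111), and DESeq2 called 0; the count was also 0 without either CCM library and without scaling factors. Bckdk, the kinase of that complex, was at 0.36 (SE 0.111) in TCM against CCM, under the threshold of 0.39 (edgeR adjusted p = 0.0416). Its phosphatase Ppm1k was at 0.46 (edgeR adjusted p = 0.0817) and Bckdhb at -0.11, neither called. Of 7 tested factors known to act on Pdk4, Pparg (7.86 CPM in CCM, 14.6 CPM in TCM; log2 FC 0.89, SE 0.168) and Esrra (log2 FC 0.45, SE 0.109) were higher in TCM. In LA 0 of these factors were called by edgeR or DESeq2, with 0 at an unadjusted p under 0.05. The count in TCM was 1 without TCM 1, without either CCM library and without scaling factors. Of 13 tested PPAR targets, only the fatty acid binding protein gene Fabp4 passed in TCM, at 1.51 (SE 0.162), and it also passed in LA against vehicle, at 1.23 (SE 0.185), and in CCM against vehicle, at 1.30 (SE 0.184; edgeR adjusted p = 0.0208), which share the vehicle libraries. Fabp4 was at 14.0 CPM in vehicle, 34.8 CPM in CCM, 33.0 CPM in LA and 99.0 CPM in TCM. The count of this list in LA was 0 without either vehicle library and without LA 2, and in TCM it was 2 without either TCM library.

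**Figure D4:**
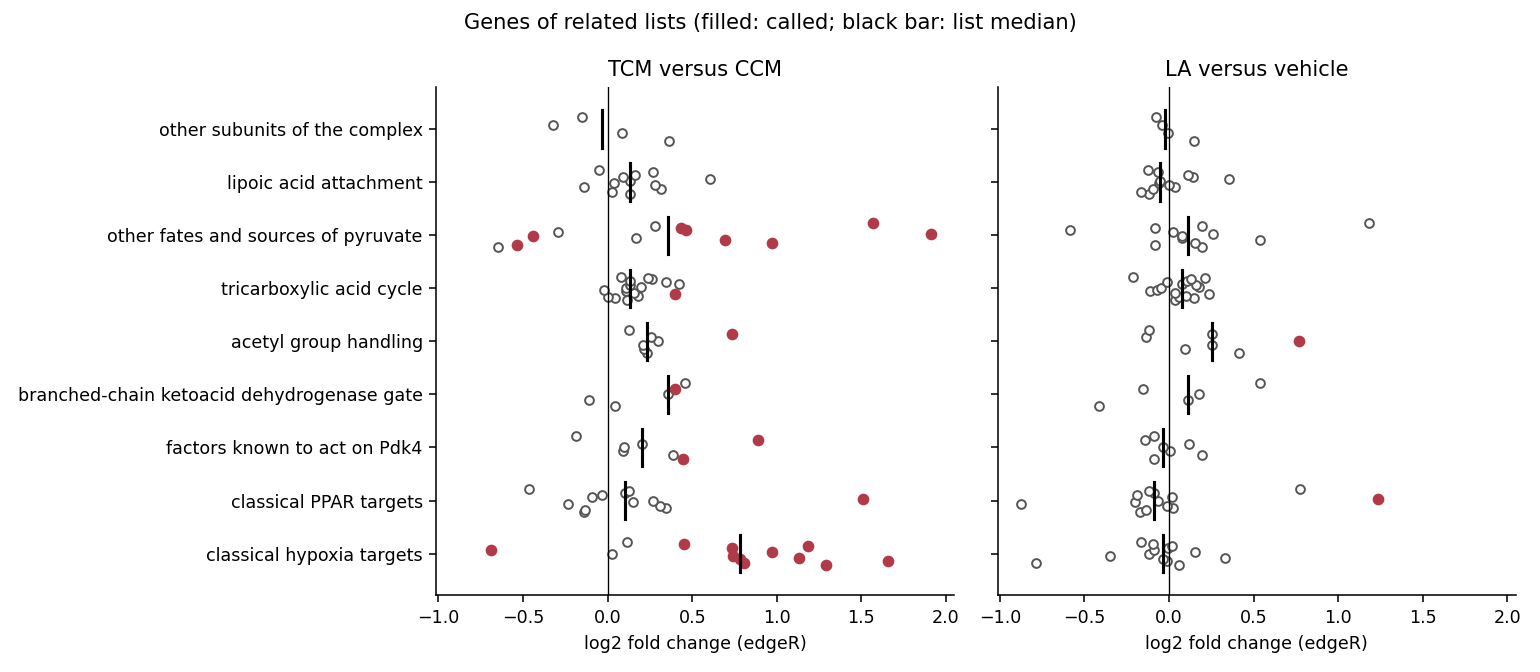
Log2 FC (x axis) of each tested gene in 9 lists (y axis) for TCM against CCM on the left and LA against vehicle on the right, with filled points for called genes and a black bar at the list median. The hypoxia targets have their median at 0.78 on the left and at -0.04 on the right, and the lists for lipoic acid and the other subunits hold no filled point in either panel.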

How the data were processed

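Poly(A) RNA of 8 FRC samples was sequenced with a directional library kit. Per the submitters' processing notes, the authors aligned reads with STAR 2.7.0a to GRCm38 and counted them per gene with featureCounts of Subread 2.0.1; the strand setting of the counting was not given in the sources used here. The deposited values used are raw read counts per gene. A second deposited table, named as normalized, held the same counts for 12137 genes (100% of values equal) and was not used further.

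Counts were scaled with TMM factors (0.938 to 1.04) and tested with edgeR 4.0.16 (R 4.3.3; quasi-likelihood, robust, all 8 libraries, 1 mean per condition). Intervals are 95%. DESeq2 1.42.0, other scalings, filters and fold thresholds, the replicate number as a block and leaving out each library were alternatives. The script was checked on simulated data that had the same spread in every condition. That check does not cover the looser TCM pair. Gene positions and lengths came from GENCODE M21 (GRCm38, all 10 symbols matched), and sequences from RefSeq. All 10 genes are named. List genes are named if called in TCM against CCM or LA against vehicle, at most 4 per list and comparison by adjusted p. The 5 genes most correlated to the member of smallest p are also named. The uncalled values of Dlat, Pdhx, Bckdk, Ppm1k and Bckdhb were added after they were seen. The genes and lists were chosen with earlier results of these data known, so they are no independent evidence.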

Additional observations from a re-analysis of the deposited data

Results flagged for a closer look

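The effect of TCM over CCM differed from the effect of LA over vehicle, by the test of the difference itself (edgeR, adjusted over 12137 genes), for 3 genes of the gate: Pdk1 by 1.45, Pdk4 by 1.96 and Pdp1 by 1.56 on the log2 scale. Among the named genes of the lists, the same test passed for Aldoa (1.23), Bnip3 (1.67), Dbt (0.55), Ldha (0.82), Pgk1 (1.17) and Pparg (1.03), where TCM gave the higher value, and for Me2 (-0.51) and Ndrg1 (-0.60), where it gave the lower value. With the replicate block the counts of the lists that hold Dbt and Me2 went from 1 higher to 0 and from 1 lower to 0. DESeq2 gave 0 for these and 0 for the list that holds Pparg (1 in edgeR). Leaving out any vehicle, CCM or LA library also gave 0 for each of these 3 counts, and leaving out any of them but vehicle 2 gave 0 lower hypoxia targets (1 with all libraries). The differences for Pdk1, Pdk4 and Pdp1 include the gap between CCM and vehicle, and TCM directly against LA gave log2 FCs of 1.17, 1.55 and 0.97. Conditions of 2 libraries are too small for a test of outlying samples.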

How the results depend on the processing

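Pdk1 and Pdk4 kept their calls in TCM against CCM in all 19 alternatives, with log2 FCs of 1.38 to 1.58 and 1.40 to 1.68, and Pdp1 did so at 0.71 to 0.89. In LA against vehicle the count of called genes of the gate was 1; it was 0 with only the libraries compared and 0 with glmTreat, and 0 to 1 when a library was left out. In CCM against vehicle the count was 0; it was 1 with DESeq2, 1 with no filter on low counts and 1 with the block and crossed CCM numbers (added after seeing the data), each time Pdp1. Leaving out a library gave 3 to 5 calls in TCM against CCM and 2 to 5 in TCM against vehicle. Replicate numbers do not pair the libraries by their labels, and deviations of same-numbered libraries correlated by -0.242 to 0.353 between conditions. The replicate block changed no such count: 3 in TCM against CCM, 1 in LA against vehicle and 3 for the difference of the effects; over all genes it gave 2367 calls in TCM against CCM beside 2314, and crossing the CCM numbers gave 2675. Among the lists, the block changed counts in LA against vehicle (hypoxia targets and pyruvate fates, each from 0 to 1 lower) and in the difference of the effects (acetyl handling from 0 to 1 higher, branched-chain gate from 1 to 0 higher, pyruvate fates from 1 to 0 lower). Without scaling factors the median of all genes in TCM against CCM was -0.14 and 24.2% of calls were higher, against 46.3%; the uncalled values then turned for Pdha1 (-0.00048) and Mpc1 (-0.093) in TCM against CCM, and for Pdk3 (-0.032), Pdha1 (-0.017) and Pdhb (-0.0065) in the difference of the effects. Uncalled values also turned when a library was left out: in TCM against CCM Mpc1 (-0.019 to 0.12), Pdk2 (-0.14 to 0.094) and Mpc2 (-0.28 to 0.56), in LA against vehicle Pdha1 (-0.043 to 0.063), and in the difference of the effects Pdk3 (-0.014 to 0.24) and Mpc2 (-0.087 to 0.76). The cause was not tested. Of 731 values of single genes under an alternative, 693 kept direction and call. Of the gate, Mpc1 (79 to 121 counts) had the fewest reads.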
